A study of Homo sapiens with 12 samples.

Results

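The genes described here encode the machinery that takes a cell from G1 into S phase and copies its DNA. They are a list of 56 gene names that fall into 9 complexes: origin licensing, the MCM family, helicase activation, the polymerases, the clamp and its loaders, single-strand binding with Okazaki fragment joining, fork protection, chromatin assembly with methylation upkeep, and cyclin E with E2F. Of these, 50 were measured by a probe set that the array annotation pairs with 1 gene symbol, among 14232 genes measured in that way. The other 6, MCM7, POLA1, PCNA, RPA3, FEN1 and TIPIN, have no such probe set and are not analysed here. Transcripts were measured on 12 Affymetrix arrays of total RNA from LN229, an established human glioblastoma cell line. Each of the 4 groups had 3 arrays: control siRNA in normoxia (20% oxygen), control siRNA in hypoxia (1% oxygen), HIF1A siRNA in hypoxia and HIF2A siRNA in hypoxia. HIF2A is the older name of EPAS1, and the control was a non-targeting siRNA that both control groups received. Cells were transfected 24 h after seeding, moved to their oxygen level 48 h later and harvested after 16 h, and no HIF siRNA group was kept in normoxia. The labels number the arrays of a group from 1 to 3 but do not say that they came from separate cultures, so the p-values measure the spread between these arrays, which may be technical.

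Before S phase, the origin recognition complex, CDC6 and CDT1 load the ring-shaped MCM helicase onto DNA. Kinases, CDC45 and the GINS complex then switch the helicase on, and polymerases, a sliding clamp with its loader, and single-strand binding proteins follow it. Many of these genes are transcribed by E2F factors, which cyclin E with its kinase releases from RB, and they are active in dividing cells such as those of a tumour line. HIF1A and EPAS1 encode the oxygen-sensitive subunits of the hypoxia-inducible factors.

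In hypoxia with control siRNA, 36 of the 50 genes were lower than in normoxia at an adjusted p under 0.05 and 0 were higher. Over all genes tested in this comparison, 8.95% were called lower and 3.37% higher. The log2 change was below 0 for all 50 genes and ran from -1.58 to -0.15, with a median of -0.88, which is 54.2% of the normoxic level; the median over all genes was -0.03, and 56.2% of all genes were below 0. In 48 of the 50 genes all 3 hypoxic arrays lay below all 3 normoxic arrays, a pattern found in 26.3% of all genes. At an unadjusted p under 0.05 the count was 42 lower and 0 higher, against 18.7% and 6.94% of all genes. The mean level of 46 of the 50 genes lay above the median over all genes. With dim probe sets left out, 37 of 48 replication genes were called lower, against 18.9% of the 7727 genes kept. RNA was taken from whole cultures, so fewer cells in S phase and less RNA of these genes per cell cannot be told apart. Without the second hypoxic array 24 of the 50 genes were called lower (3.53% of all genes), and without the first normoxic array 25 (3.63%).

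**Figure D1:**
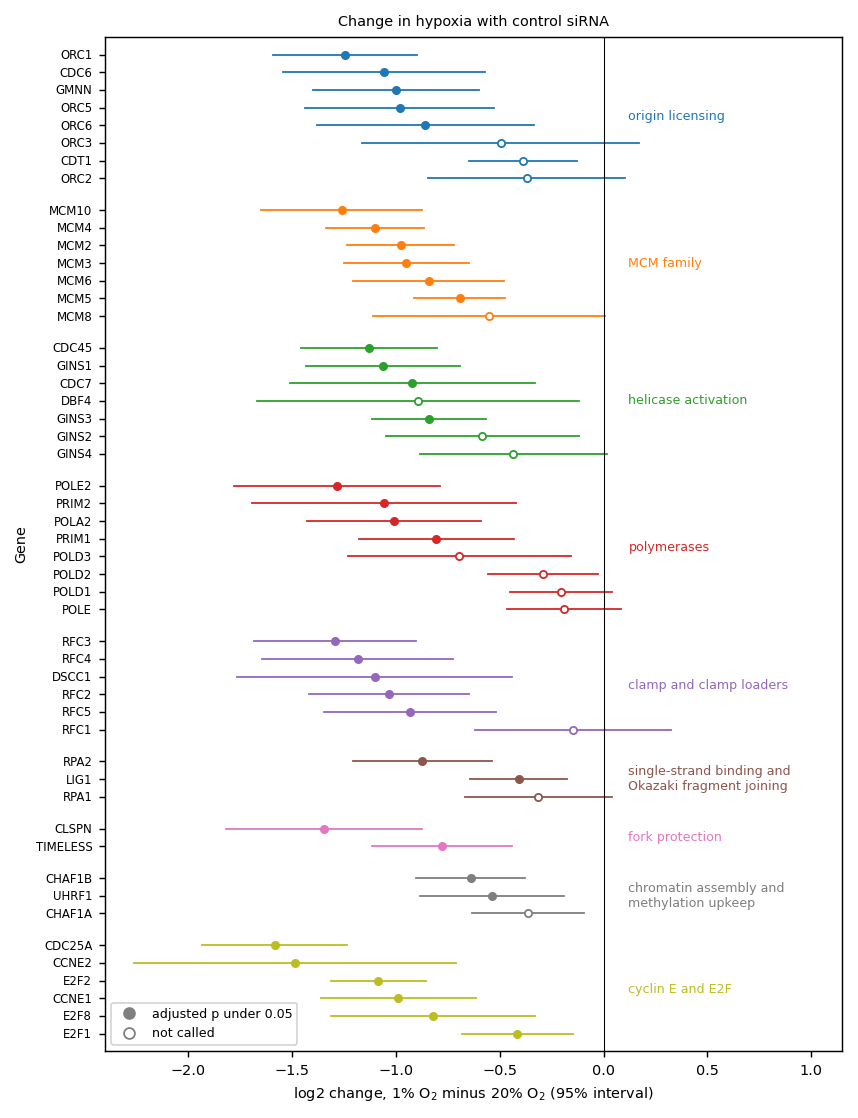
The log2 change from 20% to 1% oxygen with control siRNA is shown for each of the 50 genes, ordered within its complex (3 arrays per group; points are estimates, lines 95% intervals, filled points adjusted p under 0.05). All points lie left of 0, from -1.58 for CDC25A to -0.15 for RFC1, and 36 are filled.

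Promoter windows from RefSeq (GRCh38.p14), which hold 250 bases before and 50 after a gene's start, were matched to 42 of the 50 genes, using the first start listed. The sequences below come from the 3 matched genes with the largest falls in hypoxia, CDC25A, CLSPN and RFC3, and from the 2 with the smallest changes, RFC1 and POLE, to show which motif letters stand in genes at either end. Capitals mark matches on either strand to an E2F motif (TTTGGCGC, TTTCCCGC, TTTCGCGC or TTTGCCGC), to the CCAAT box, or to ACGTG, a form of the core of a hypoxia response element. The form GCGTG was not searched. The CDC25A run is chr3:48188418-48188667 on the minus strand, the CLSPN run chr1:35769976-35770094 on the minus strand, the RFC3 run chr13:33817899-33818148 on the plus strand, the RFC1 run chr4:39366363-39366612 on the minus strand and the POLE run chr12:132687343-132687586 on the minus strand. Each ends at the base before the start, except that of CLSPN, which goes 3 bases past it to hold a whole match. Far bases that another gene spans were left out for CLSPN (134 bases) and POLE (6 bases).
CDC25A: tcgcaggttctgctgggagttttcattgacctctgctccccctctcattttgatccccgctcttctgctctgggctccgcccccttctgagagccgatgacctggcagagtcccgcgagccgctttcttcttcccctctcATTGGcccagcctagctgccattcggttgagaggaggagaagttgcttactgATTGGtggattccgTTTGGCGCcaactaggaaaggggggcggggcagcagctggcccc
CLSPN: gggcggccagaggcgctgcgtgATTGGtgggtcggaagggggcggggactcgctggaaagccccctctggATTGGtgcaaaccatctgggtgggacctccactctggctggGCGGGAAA
RFC3: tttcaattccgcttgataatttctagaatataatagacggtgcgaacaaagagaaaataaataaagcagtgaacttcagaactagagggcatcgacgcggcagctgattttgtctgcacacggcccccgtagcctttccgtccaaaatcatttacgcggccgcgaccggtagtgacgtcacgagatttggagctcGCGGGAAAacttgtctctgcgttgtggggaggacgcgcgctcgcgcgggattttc
RFC1: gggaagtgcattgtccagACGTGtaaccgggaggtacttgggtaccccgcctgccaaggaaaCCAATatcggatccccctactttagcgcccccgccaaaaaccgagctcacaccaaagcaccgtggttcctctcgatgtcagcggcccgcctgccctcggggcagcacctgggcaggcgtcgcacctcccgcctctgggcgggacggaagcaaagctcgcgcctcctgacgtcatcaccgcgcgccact
POLE: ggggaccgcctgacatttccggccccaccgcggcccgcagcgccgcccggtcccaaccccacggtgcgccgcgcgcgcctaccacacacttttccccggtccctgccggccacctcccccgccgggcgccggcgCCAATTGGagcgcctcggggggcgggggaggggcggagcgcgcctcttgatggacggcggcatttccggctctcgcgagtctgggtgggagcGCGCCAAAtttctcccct
An E2F match stands in the CDC25A, CLSPN, RFC3 and POLE runs and in none of the letters shown for RFC1. Each of the CDC25A, CLSPN and POLE runs has 2 CCAAT matches, those of POLE overlapping on opposite strands. The RFC1 run has 1, and it alone of the 5 runs holds ACGTG. A further CCAAT match of CLSPN, at -119 from the start, begins in the bases left out. The unsearched form GCGTG stands unmarked in the CLSPN run.

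An E2F match was found in 20 of the 42 windows, or 47.6%, against 3.33% of 27305 promoters of the same length and 4.49% of 11386 promoters of genes on these arrays. The share was 50% among the 30 matched genes called lower in hypoxia and 41.7% among the 12 not called. Genes with a match had a median log2 change of -0.90 and 15 of 20 were called; genes without one had a median of -0.91 and 15 of 22 were called. CCAAT stood in 57.1% of the windows against 35.7% of all promoters, and ACGTG in 26.2% against 21.6%. The cell-cycle homology region, searched as TTTGAA or TTCGAA on both strands, stood in 4.76% against 16.6%. These matches describe letters and show no binding.

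Origin licensing fell in 5 of its 8 genes (median log2 change -0.92). ORC1, the largest subunit of the origin recognition complex, measured 8.10, 8.12 and 8.24 on the 3 normoxic arrays and 7.07, 6.71 and 6.96 on the 3 hypoxic ones (log2 level). These values do not overlap, and ORC1 fell to 42.2% of its normoxic level (log2 change -1.24, SE 0.16, adjusted p = 0.00077). The licensing factor CDC6 fell by 1.06 and geminin (GMNN), which blocks CDT1 once S phase has begun, by 1.0, on the log2 scale. The other 2 subunits that fell were ORC5 (-0.98) and ORC6 (-0.86). ORC2, another subunit, gave the smallest change of the group: 8.39, 8.23 and 8.31 in normoxia against 8.08, 7.63 and 8.12 in hypoxia. Its arrays did not overlap either, but the change of -0.37 (SE 0.21) did not pass the test (adjusted p = 0.334). ORC3 (-0.50, adjusted p = 0.361) and CDT1, which brings the helicase to the origin (-0.39, adjusted p = 0.0566), were also not called, with all hypoxic arrays below the normoxic ones.

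Within the MCM family 6 of 7 genes fell (median -0.95). MCM2 to MCM6, subunits of the replicative helicase, were all 5 called, with log2 changes of -0.98 for MCM2, -0.95 for MCM3, -1.10 for MCM4, -0.69 for MCM5 and -0.84 for MCM6. MCM4 measured 10.82, 10.71 and 10.76 in normoxia and 9.79, 9.50 and 9.69 in hypoxia, 46.7% of the normoxic level (SE 0.11, adjusted p = 0.00014). The largest fall belonged to MCM10, which helps the assembled helicase to start: 9.07, 9.0 and 9.0 in normoxia and 7.92, 7.66 and 7.71 in hypoxia (-1.26, SE 0.18, adjusted p = 0.00131). Both genes show tight normoxic values and a gap of more than their spread. MCM8, a relative that is not part of the replicative ring and is known for its work in recombination, measured 10.07, 9.90 and 9.88 against 9.73, 9.21 and 9.26, a change of -0.55 that was not called (SE 0.25, adjusted p = 0.202).

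Helicase activation had 4 called genes of 7 (median -0.89). CDC45, a subunit of the active helicase, measured 9.70, 9.54 and 9.73 in normoxia and 8.66, 8.40 and 8.52 in hypoxia. It fell to 45.7% of normoxia (-1.13, SE 0.15, adjusted p = 0.00095), and the arrays stood far apart. Of the 4 GINS subunits, GINS1 (-1.06) and GINS3 (-0.84) fell. GINS2 (-0.58, adjusted p = 0.103) and GINS4 were not called; GINS4 measured 7.77, 7.54 and 7.95 in normoxia and 7.27, 7.08 and 7.60 in hypoxia (-0.43, SE 0.20, adjusted p = 0.212), and its groups overlapped. The kinase CDC7 fell by 0.92 on the log2 scale (adjusted p = 0.047). DBF4, the activating partner of CDC7, had a similar change of -0.89 but a wider spread (SE 0.35) and was not called (adjusted p = 0.133).

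Among the polymerases 4 of 8 genes fell (median -0.75), and they were not evenly placed. All 3 measured genes of the polymerase alpha-primase complex, which lays down the first primers, fell: POLA2 by 1.01, PRIM1 by 0.81 and PRIM2 by 1.06 on the log2 scale. POLE2, an accessory subunit of the leading-strand polymerase epsilon, measured 6.18, 5.88 and 6.0 in normoxia and 5.17, 4.42 and 4.62 in hypoxia (-1.28, SE 0.23, adjusted p = 0.00451). Its mean over the 12 arrays was low, at 4.99, and no measure of background was given with the values. POLE, the catalytic subunit of the same enzyme, measured 8.03, 8.0 and 8.0 in normoxia and 7.99, 7.70 and 7.78 in hypoxia, and was not called (-0.19, SE 0.12, adjusted p = 0.405). Nor were the 3 measured subunits of polymerase delta, the lagging-strand enzyme: POLD1 (-0.21), POLD2 (-0.29) and POLD3 (-0.69), with adjusted p from 0.0915 for POLD3 to 0.296 for POLD1. The 95% intervals reached down to -0.46 for POLD1, -0.56 for POLD2 and -0.47 for POLE, so falls smaller than these could have been missed.

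The clamp loaders open the sliding clamp and place it on DNA, and 5 of the 6 measured genes fell (median -1.07). RFC3 measured 10.54, 10.39 and 10.43 in normoxia and 9.35, 9.09 and 9.04 in hypoxia, 40.8% of the normoxic level (-1.29, SE 0.18, adjusted p = 0.00117). The other small subunits fell too: RFC2 (-1.03), RFC4 (-1.18) and RFC5 (-0.93). DSCC1, part of an alternative loader that works in sister chromatid cohesion, fell by 1.10 on the log2 scale (SE 0.30, adjusted p = 0.036). RFC1, the large subunit that joins the small ones in the main loader, measured 8.99, 8.80 and 8.87 in normoxia and 8.95, 8.50 and 8.76 in hypoxia. Its groups overlapped and it had the smallest change of the 50 genes (-0.15, SE 0.21, adjusted p = 0.763), which became 0.0105 under quantile and 0.0196 under cyclic loess normalization.

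RPA2, a subunit of the trimer that coats single-stranded DNA, measured 8.46, 8.37 and 8.42 in normoxia and 7.53, 7.35 and 7.75 in hypoxia. It fell to 54.6% of normoxia (-0.87, SE 0.15, adjusted p = 0.00446). RPA1, the large subunit of the same trimer, measured 9.72, 9.70 and 9.74 against 9.48, 9.46 and 9.29; the change of -0.31 was not called (SE 0.16, adjusted p = 0.26), although no array overlapped. LIG1, the ligase that seals Okazaki fragments, fell by 0.41 on the log2 scale (adjusted p = 0.029). Both genes of fork protection fell. Claspin (CLSPN), which links stalled forks to checkpoint kinase 1, measured 7.97, 7.77 and 7.73 in normoxia and 6.79, 6.14 and 6.49 in hypoxia, 39.3% of the normoxic level (-1.35, SE 0.21, adjusted p = 0.00265). TIMELESS, its fork partner, measured 9.23, 9.18 and 9.21 against 8.58, 8.31 and 8.40 (-0.78, SE 0.15, adjusted p = 0.00783).

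In chromatin assembly and methylation upkeep 2 of 3 genes fell, with a median of -0.54 over the 3. CHAF1B, a subunit of the histone chaperone CAF-1, measured 8.07, 8.02 and 8.08 in normoxia and 7.61, 7.29 and 7.35 in hypoxia (-0.64, SE 0.12, adjusted p = 0.00613). CHAF1A, the large subunit of CAF-1, measured 7.80, 7.80 and 7.75 against 7.71, 7.26 and 7.29 and was not called (-0.36, SE 0.12, adjusted p = 0.0811). UHRF1, which recruits the maintenance DNA methyltransferase, fell by 0.54 on the log2 scale (adjusted p = 0.0474).

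All 6 genes of the cyclin E and E2F group fell (median -1.04). CDC25A, the phosphatase that activates cyclin-dependent kinase 2, had the largest fall of the 50 genes. It measured 8.37, 8.18 and 8.36 in normoxia and 6.84, 6.47 and 6.86 in hypoxia, 33.4% of the normoxic level (-1.58, SE 0.16, adjusted p = 0.00017). The cyclins that bind that kinase at G1/S fell as well, CCNE2 by 1.49 (SE 0.35, adjusted p = 0.0194) and CCNE1 by 0.99 (SE 0.17, adjusted p = 0.00407) on the log2 scale. E2F2, an activating E2F, measured 7.83, 7.78 and 7.84 against 6.75, 6.80 and 6.64 (-1.09, SE 0.10, adjusted p = 0.00013), and E2F8, a repressing member, fell by 0.82. E2F1, another activator, had the smallest change of the group: 8.61, 8.72 and 8.74 in normoxia and 8.23, 8.30 and 8.30 in hypoxia (-0.42, SE 0.12, adjusted p = 0.0469). Its call sat at the threshold and was lost under quantile (-0.26) and cyclic loess (-0.25) normalization.

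**Figure D2:**
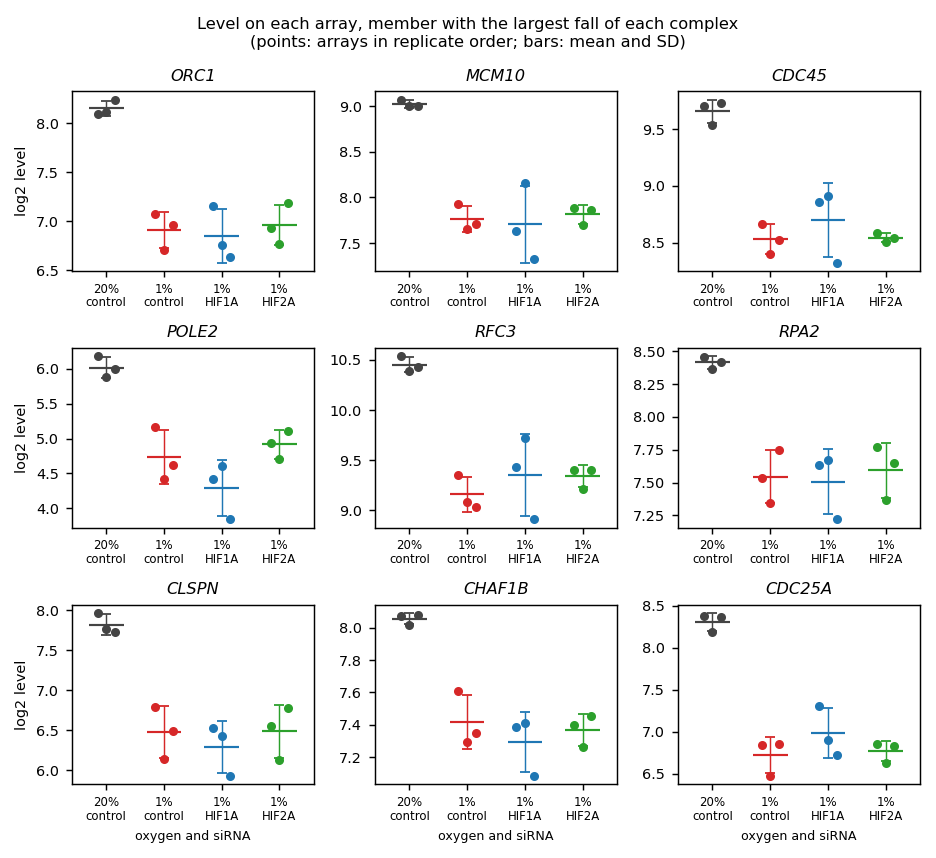
The log2 level on each array is shown for the gene with the largest fall in each of the 9 complexes (4 groups of 3 arrays; bars are mean and SD; the vertical axes differ). In every panel the normoxic arrays lie above the 9 hypoxic arrays, and the HIF1A siRNA values spread more widely than the normoxic ones.

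Both siRNAs lowered their own targets. On the hypoxic control arrays HIF1A stood at 11.72, 11.40 and 11.26, and its siRNA brought it to 8.20, 9.06 and 7.74 (log2 change -3.13, SE 0.27, adjusted p = 0.00016). EPAS1 fell by 2.59 with HIF2A siRNA (adjusted p = 3.1e-05) and by 1.48 with HIF1A siRNA (adjusted p = 0.00031). Values over all probe sets were most compressed on the third HIF1A siRNA array (SD 2.347). Its upper quartile was 7.88 against 8.20 to 8.57 on the other 11 arrays. The first and second HIF1A siRNA arrays (SD 2.463 and 2.455, upper quartiles 8.22 and 8.20) lay near the second HIF2A siRNA array (2.453 and 8.24). Array number limits the precision throughout, and arrays of 1 group correlated at 0.983 to 0.994. The glioma label was set against 7 markers, whose log2 levels were 12.2 for vimentin (VIM), 10.6 for S100B, 10.0 for nestin (NES), 9.75 for CD44, 6.37 for GFAP, 5.69 for ALDH1L1 and 3.21 for AQP4. Markers of other cell types ran from 5.08 to 8.39 (neuron, highest SYT1), 4.83 to 6.82 (oligodendrocyte), 2.45 to 8.49 (microglia and macrophage, highest CD68), 3.64 to 7.12 (endothelium) and 2.33 to 11.3 (epithelium, highest KRT8, with KRT18 at 9.55). Probe sets differ in brightness and no background measure was given, so these levels neither rank the lists nor show which markers are absent. Of the 7 glioma markers, S100B (-0.63) and NES (-0.41) were called lower in hypoxia, where 8.95% of all genes were. The other 5 were not called and had changes above 0: VIM 0.29, AQP4 0.09, GFAP 0.07, ALDH1L1 0.05 and CD44 0.02. No marker of another cell type was called in hypoxia with control siRNA. Against normoxia, GFAP (0.34), CD68 (0.41) and CLDN5 (0.38) were higher and CD44 (-0.42) lower with HIF1A siRNA, and NES (-0.40) lower with HIF2A siRNA. S100B was 0.85 higher with HIF1A siRNA than with control siRNA and 0.65 higher than with HIF2A siRNA. The part of these markers in the results was not tested.

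With HIF1A siRNA in hypoxia, 0 of the 50 replication genes were called lower and 0 higher than with control siRNA in hypoxia, while 10.2% of all genes were called lower and 0.857% higher. At an unadjusted limma p under 0.05 there were 6 lower and 1 higher, against 23.9% and 6.76% of all genes. The log2 changes ran from -0.86 to 0.33 with a median of -0.10, and the median over all genes was -0.05. The smallest adjusted p belonged to RFC1, whose control siRNA arrays read 8.95, 8.50 and 8.76 and whose HIF1A siRNA arrays read 8.40, 8.09 and 7.52 (-0.74, SE 0.21, adjusted p = 0.0504). UHRF1 followed at 7.84, 7.60 and 7.71 against 7.11, 7.48 and 6.98 (-0.53, SE 0.16, adjusted p = 0.0545). These were the 2 genes with every HIF1A siRNA array below every control array, which held for 19.8% of all genes. E2F2 was the 1 gene with every array above, at 6.75, 6.80 and 6.64 against 7.22, 7.01 and 6.97 (0.33, SE 0.10, adjusted p = 0.0606), which held for 11% of all genes. For the median gene the 95% interval reached 0.38 to either side, so smaller shifts could not be told from none.

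This count depended on how the arrays were put on 1 scale. Quantile normalization, which gives all arrays the same distribution, moved the median over all genes from -0.05 to 0.07 and that of the replication genes from -0.10 to 0.10, and called 8 of them higher (5.1% of all genes). These were CDC45, E2F1, E2F2, MCM2, MCM3, MCM4, POLD2 and RFC3. Cyclic loess normalization called the same 8 higher (3.83% of all genes) and RFC1 lower (8.31%). Centring each array on its median called E2F2 (0.46) and MCM4 (0.34) higher and RFC1 (-0.61) lower; 3.58% of all genes were called higher and 8.94% lower, so the 2 higher calls lie near the share of all genes and the 1 lower call under it. E2F2 was 0.51 higher after quantile normalization (SE 0.09, adjusted p = 0.00804), in place of 0.33 as deposited. Over all genes, 92.2% of the calls in this comparison were lower as deposited and 60.8% after quantile normalization. The third HIF1A siRNA array was the lowest of all 12 for 40 of the 50 genes and the lowest of its group for 49. The share of all genes with this order of arrays was not counted. Over all probe sets this array also had the lowest median (6.49) and upper quartile (7.88) of the 12. Without it 0 genes were called as deposited, with a median change of 0.04, and quantile normalization of the other 11 arrays called 7 higher and 0 lower (1.55% and 3.48% of all genes), with a median of 0.18. Without the second HIF1A siRNA array 4 were called lower, and without the first 1, both under the share of all genes (17.2% and 10.1%).

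With HIF2A siRNA in hypoxia, 0 of the 50 genes were called in either direction against control siRNA. Over all genes 0.00703% were called lower, which is 1 gene, EPAS1 itself, and 0% higher. At an unadjusted limma p under 0.05, 1 replication gene was lower and 0 were higher, against 1.74% and 1.79% of all genes. The log2 changes ran from -0.40 to 0.27 with a median of 0.05. GINS1, at 9.03, 8.63 and 8.65 with control siRNA and 8.44, 8.16 and 8.51 with HIF2A siRNA, was the lower gene (-0.40, SE 0.17, adjusted p = 1). GINS1 and LIG1 (-0.13) had all HIF2A siRNA arrays below all control arrays, against 4.9% of all genes. In each alternative run, too, 0 replication genes were called lower and 0 higher at an adjusted p under 0.05.

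**Figure D3:**
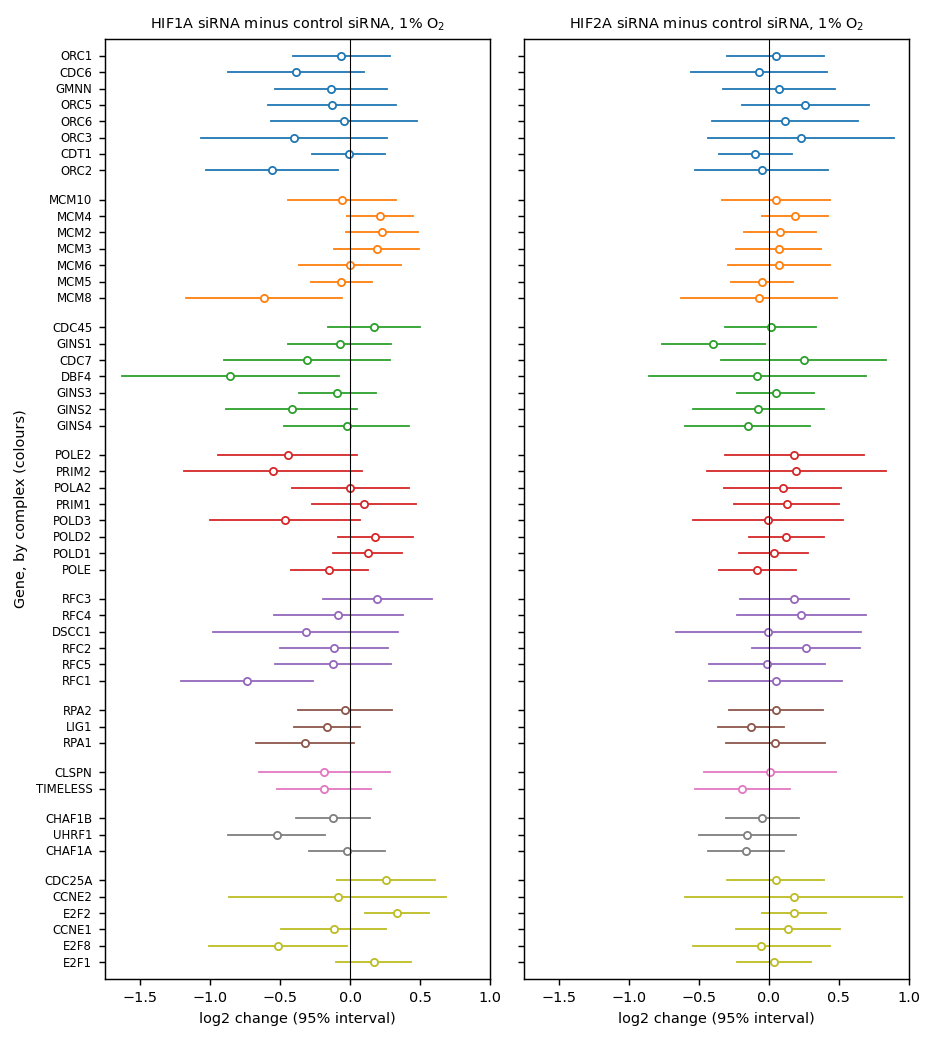
The log2 changes of the 50 genes with HIF1A siRNA (left) and HIF2A siRNA (right) against control siRNA, all in 1% oxygen, are drawn in the gene order used for hypoxia (values as deposited, 3 arrays per group; lines are 95% intervals; open points, not called). Points lie between -0.86 and 0.33 on the left and between -0.40 and 0.27 on the right, and most intervals cross 0.

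Set against normoxia, the replication genes stayed low in both HIF siRNA groups. These 2 comparisons and the one with control siRNA share their normoxic arrays, so their values are given side by side. With HIF1A siRNA 45 of 50 genes were called lower than in normoxia (30.4% of all genes), with a median log2 change of -0.98, and 0 were called higher (4.67%). With HIF2A siRNA 33 were called lower (6.79% of all genes), with a median of -0.81, and 0 higher (2.85%). With dim probe sets left out, 44 of 48 replication genes were called lower with HIF1A siRNA and 36 of 48 with HIF2A siRNA. Of the 7727 genes kept, 52.8% and 14.6% were called lower. The 95% interval of the difference from normoxia lay wholly below 0 for 47 genes with HIF1A siRNA (37.2% of all genes) and 43 with HIF2A siRNA (17.4%). The 3 exceptions with HIF1A siRNA were POLD1, POLD2 and E2F1, and the 7 with HIF2A siRNA were ORC2, ORC3, POLD1, POLD2, POLE, RFC1 and RPA1. Without the first normoxic array 19 genes were called lower with HIF2A siRNA (2.44% of all genes), and without the second HIF2A siRNA array 21 (2.56%). The HIF1A siRNA count was 38 after quantile normalization, with a median of -0.57, and 28 after quantile normalization without the third HIF1A siRNA array, where 14.6% and 5.74% of all genes were called lower. There the median over all genes moved from -0.12 as deposited to 0.08 after quantile normalization of all arrays.

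CDC25A shows the pattern gene by gene: 7.31, 6.91 and 6.73 with HIF1A siRNA and 6.85, 6.63 and 6.84 with HIF2A siRNA. All 6 values lie under the lowest normoxic value of 8.18, at log2 changes from normoxia of -1.32 and -1.53. MCM4 measured 10.04, 9.84 and 9.75 with HIF1A siRNA and 9.83, 9.79 and 9.93 with HIF2A siRNA, changes of -0.88 and -0.91. Claspin (CLSPN) measured 6.52, 6.43 and 5.92, and 6.56, 6.13 and 6.77, changes of -1.53 and -1.34. CDC45 lay at -0.96 and -1.12, RFC3 at -1.10 and -1.11, ORC1 at -1.31 and -1.19 and MCM10 at -1.32 and -1.21. Each of these 7 genes was called lower in all 3 hypoxic groups. POLE2 spread more, at 4.42, 4.60 and 3.84 with HIF1A siRNA and 4.93, 4.71 and 5.11 with HIF2A siRNA (-1.73 and -1.10).

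In all, 31 genes were called lower than normoxia in all 3 hypoxic groups and 4 in none: GINS4, POLD1, POLD2 and POLE. The share of all genes called lower in all 3 groups was not counted. The 3 comparisons share their normoxic arrays, so their calls are not independent and the overlaps are given as counts only. Among the 36 called with control siRNA, 35 were also called with HIF1A siRNA, E2F1 being the exception, and 31 with HIF2A siRNA, the exceptions being ORC5, ORC6, CDC7, PRIM2 and E2F1. A further 10 genes were called with HIF1A siRNA but not with control siRNA (ORC2, ORC3, CDT1, MCM8, DBF4, GINS2, POLD3, RFC1, RPA1 and CHAF1A), and 2 with HIF2A siRNA but not with control siRNA (CDT1 and CHAF1A). A call in 1 group and not in another is no difference between the groups, and the direct comparisons with control siRNA called none of these genes on the deposited values.

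By complex, the medians against normoxia with control, HIF1A and HIF2A siRNA were -0.92, -1.02 and -0.73 for origin licensing, and -0.95, -0.84 and -0.88 for the MCM family. Helicase activation stood at -0.89, -1.0 and -0.79 and the polymerases at -0.75, -0.86 and -0.69. The clamp loaders stood at -1.07, -1.12 and -0.95, and single-strand binding with Okazaki fragment joining at -0.41, -0.64 and -0.54. Fork protection had the lowest medians with both HIF siRNAs (-1.25 and -1.15), from 2 genes. Chromatin assembly stood at -0.54, -0.76 and -0.68, and cyclin E with E2F at -1.04, -1.21 and -0.89.

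**Figure D4:**
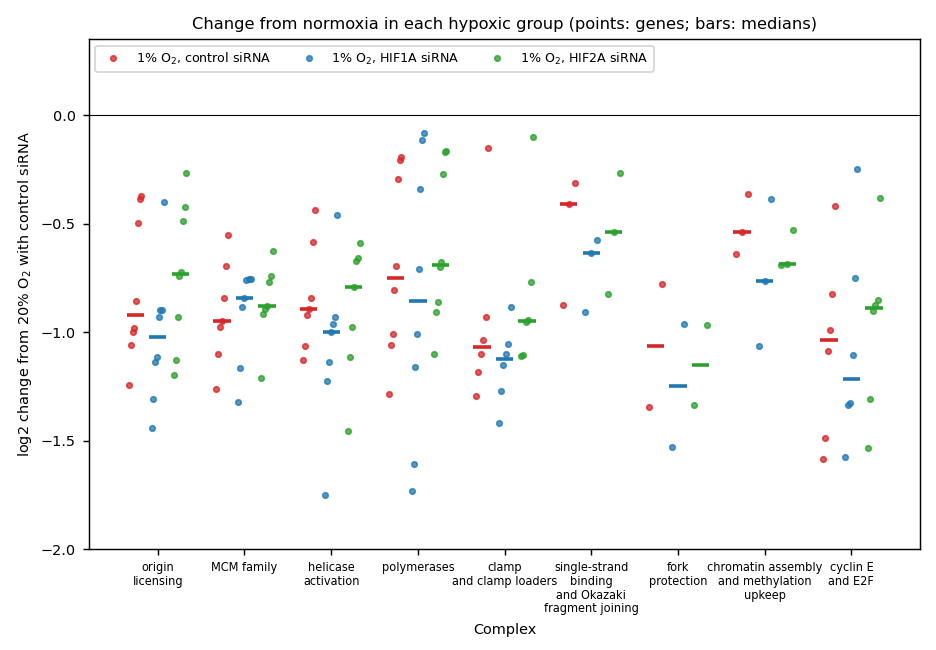
The log2 change from normoxia is plotted for each of the 50 genes in the 3 hypoxic groups, by complex (points are genes, bars medians; all 3 groups share the 3 normoxic arrays). Every point lies below 0, and the medians of a complex lie near each other in the 3 groups.

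The median of the 50 genes on each array was taken relative to their normoxic means. It was 0.05, -0.06 and 0.00 on the normoxic arrays and -0.69, -1.06 and -0.86 in hypoxia with control siRNA. With HIF1A siRNA it was -0.84, -0.76 and -1.42, and with HIF2A siRNA -0.73, -1.0 and -0.69. The 9 hypoxic arrays lay below the 3 normoxic ones, while the first and second HIF1A siRNA arrays lay within the range of the control siRNA arrays in hypoxia and the third below it. The second array was the lowest of its group for 34 of the 50 genes in normoxia, for 38 with control siRNA in hypoxia and for 43 with HIF2A siRNA. With HIF1A siRNA the third was, for 49. Over all probe sets these arrays also had the lowest upper quartile of their groups (8.47, 8.27, 8.24 and 7.88, in that order). The share of all genes with this order of arrays was not counted.

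The direct comparison of the siRNAs called 1 gene, RFC1, against 8.53% of all genes lower and 0.899% higher. RFC1 measured 8.40, 8.09 and 7.52 with HIF1A siRNA and 8.76, 8.53 and 9.07 with HIF2A siRNA (log2 difference, HIF1A siRNA minus HIF2A siRNA, -0.78, SE 0.21, adjusted p = 0.0453). The groups did not overlap, as in 3 of the 50 genes and 18.7% of all genes in that direction. Without the third HIF1A siRNA array the difference was -0.54 and not called (adjusted p = 0.138), nor was it without the first (adjusted p = 0.129) or the third (adjusted p = 0.183) HIF2A siRNA array. The 50 genes had a median difference of -0.11, and 6 were lower and 0 higher at an unadjusted p under 0.05, against 24.3% and 7.92% of all genes. After quantile normalization 6 genes were called higher with HIF1A siRNA than with HIF2A siRNA (CDC45, CHAF1A, E2F1, E2F2, GINS1 and MCM3; 5.61% of all genes), with a median of 0.12. Without the second HIF1A siRNA array 6 were called lower as deposited (16.4% of all genes), without the first 2 (11.9%), and without the third 0 (2.69%).

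**Figure D5:**
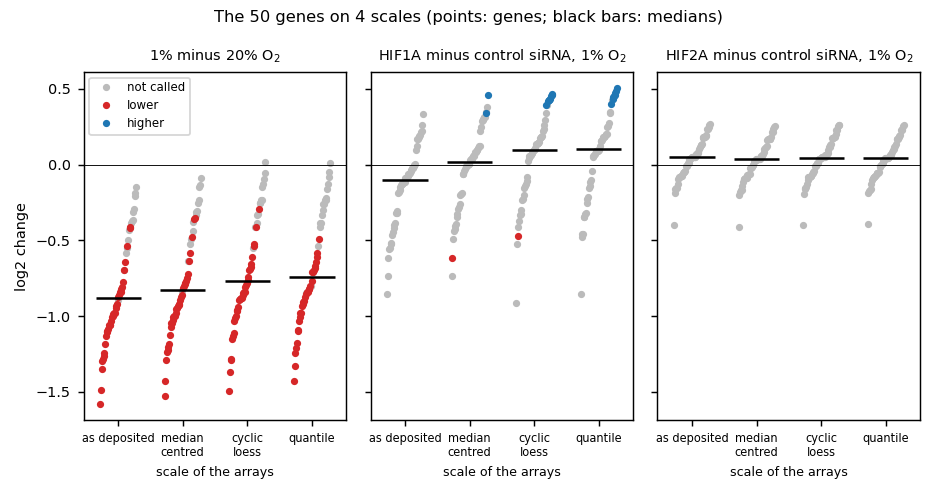
The log2 changes of the 50 genes are shown on 4 scales of the arrays, in hypoxia (left), with HIF1A siRNA (middle) and with HIF2A siRNA (right) (points are genes sorted by change, colours calls at adjusted p under 0.05, bars medians). In hypoxia the medians stay between -0.88 and -0.74 and 32 to 36 genes are called lower; with HIF1A siRNA the median goes from -0.10 as deposited to 0.10 after quantile normalization, with 8 genes called higher; with HIF2A siRNA none is called.

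The hypoxic fall held on all 4 scales: 36 genes were called lower as deposited, 32 after quantile normalization (median -0.74), 35 after cyclic loess (median -0.77) and 36 after centring (median -0.83), with 0 higher on each. Of all genes, 8.95%, 8.43%, 9.06% and 10.1% were called lower on these scales and 3.37%, 6.65%, 7.44% and 5.39% higher. Over all genes 72.6% of the calls were lower as deposited, 55.9% after quantile normalization, 54.9% after cyclic loess and 65.2% after centring. A group of 24 genes was called lower in every alternative that measured them, among them MCM2 to MCM6, MCM10, CDC45, ORC1, RFC2 to RFC5, CLSPN, TIMELESS, CCNE1, CDC25A and E2F2. The other 12 of the 36 lost their call in at least 1 alternative. Of the 16 settings, the deposited values included, E2F1 was called in 7, UHRF1 in 8, CDC7 in 9, and LIG1, ORC6 and E2F8 in 10 each; the rest (DSCC1, PRIM2, CCNE2, ORC5, PRIM1 and CDC6) were called in 11 to 15. All the replication genes but RFC1 had a change below 0 in every alternative run. As deposited, 56.2% of all genes measured had a hypoxic change below 0. How many of all genes were called lower, or lay below 0, in every alternative was not counted. How far this stability is particular to the replication genes therefore cannot be told.

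Neighbouring genes of the pathway were read from a list of 64 measured genes outside the 50. In hypoxia 17 fell, or 26.6% against 8.95% of all genes, and 2 rose, near the 3.37% of all genes; the median log2 change was -0.45. Among 25 other initiation and fork factors 4 fell and 1 rose, and among 10 S-phase checkpoint genes 5 fell. Of 16 G1 cyclins, kinases and inhibitors 6 fell. In a list of 13 genes that holds RB and E2F genes and also MXI1, 2 fell, and the 1 that rose was MXI1. Among the genes called, the largest falls were those of SKP2, a ubiquitin ligase subunit that marks the inhibitor p27 for destruction (-1.17, adjusted p = 0.00202), E2F3, an activating E2F (-1.14, adjusted p = 0.00388), the histone chaperone ASF1A (-1.10, adjusted p = 0.0224), the checkpoint kinase ATR (-0.96, adjusted p = 0.0188) and FBXO5, an inhibitor of the anaphase-promoting complex (-0.96, adjusted p = 0.0107). CCNA2, the S-phase cyclin, fell by 0.81 on the log2 scale (adjusted p = 0.0119).

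The 2 genes that rose were MXI1 and POLD4. MXI1, an antagonist of MYC, measured 7.09, 7.14 and 7.02 in normoxia and 8.70, 8.55 and 8.50 in hypoxia (1.5, SE 0.12, adjusted p = 4e-05). With HIF1A siRNA it measured 7.50, 7.40 and 7.02, a fall of 1.28 from control siRNA (adjusted p = 0.00027), and with HIF2A siRNA 8.37, 8.27 and 8.24, a change of -0.29 that was not called. POLD4, the smallest subunit of polymerase delta, rose by 0.36 in hypoxia (adjusted p = 0.045). MYC itself was not called in hypoxia (-0.58, adjusted p = 0.0808).

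The inhibitors of the G1 kinases did not move together. CDKN1A (p21) fell in hypoxia, from 8.95, 8.96 and 9.23 to 8.66, 8.51 and 8.44 (-0.51, SE 0.14, adjusted p = 0.0403). CDKN1B (p27) was not called in hypoxia (0.40, SE 0.26, adjusted p = 0.382) but fell with HIF1A siRNA, from 8.04, 7.80 and 7.51 with control siRNA to 6.68, 7.25 and 6.16 (-1.09, SE 0.26, adjusted p = 0.0243). RB1 measured 9.36, 9.22 and 9.35 in normoxia and 9.66, 9.24 and 9.19 in hypoxia (0.05, adjusted p = 0.947), and 8.37, 9.11 and 7.68 with HIF1A siRNA (-0.98 from control siRNA, adjusted p = 0.0515). The third HIF1A siRNA array was the lowest in both CDKN1B and RB1. In this list 3 genes fell with HIF1A siRNA, MXI1, CDKN1B and TICRR, an initiation factor needed to load CDC45 (-0.54, adjusted p = 0.0385), which is 4.69% of the list against 10.2% of all genes, and 0 rose; with HIF2A siRNA 0 were called.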

How the data were processed

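The authors deposited 1 value per probe set and array, treated here as log2 expression because the values run from 1.14 to 14.3; the submitters' processing notes name Partek and hg18, and how background was corrected and arrays were summarized, normalized or filtered is not given in the sources used here. Of 22011 probe sets, 14432 name 1 gene symbol in the platform annotation, 2408 several and 5171 none. For 197 genes with several probe sets the one with the highest mean was kept, leaving 14232 genes. All 4 groups were fitted in 1 model on the deposited values with limma 3.58.1 in R 4.3.3 (lmFit, eBayes), with Benjamini-Hochberg adjustment over the 14232 genes and calls at an adjusted p under 0.05, and the script was tested on simulated data. Fold sizes assume base 2. Levels of different genes rest on different probe sets, so their order is not read. The members and lists were chosen with earlier results of these data known. In full are given, per complex, the genes with the largest and smallest change in hypoxia, those called between siRNA groups, the siRNA targets, the pathway genes with the largest called changes, and CDKN1A, CDKN1B, RB1, MXI1 and MYC; RFC3, MCM4, UHRF1, E2F2 and GINS1 were added after their values were seen. Alternatives covered 3 other scales, a filter on dim probe sets, the model, array weights, the probe set per gene, a replicate block and leaving out each array; quantile normalization without the third HIF1A siRNA array was chosen after seeing the data.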

Additional observations from a re-analysis of the deposited data

Results flagged for a closer look

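RFC1, the large clamp-loader subunit, differed between the 2 HIF siRNA groups in hypoxia by a test of the difference itself: the log2 level was 0.78 lower with HIF1A siRNA than with HIF2A siRNA (HIF1A minus HIF2A -0.78, limma adjusted p = 0.0453), with all 3 arrays on 1 side. This is 1 of 50 members, against 8.53% of all genes called lower. The call was lost without the third HIF1A siRNA array (-0.54, adjusted p = 0.138), without the first (adjusted p = 0.129) HIF2A siRNA array or the third (adjusted p = 0.183), with the replicate block (adjusted p = 0.0516) and in a fit of the 2 groups alone (adjusted p = 0.161).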

How the results depend on the processing

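Members called with HIF1A siRNA against control siRNA were 0 lower and 0 higher as deposited. They became 8 higher after quantile normalization (5.1% of all genes), and 8 higher (3.83%) and 1 lower (8.31%) after cyclic loess. Centring gave 2 higher (3.58%) and 1 lower (8.94%). Without dim probe sets 1 was higher and 2 lower, against 1.41% and 24% of the genes kept. Quantile normalization without the third HIF1A siRNA array gave 7 higher (1.55% of all genes). Members called higher with HIF1A siRNA than with HIF2A siRNA went from 0 to 6 (quantile), 4 (cyclic loess), 1 (centring) and 4 (quantile without the third array). The shares of all genes called higher were 0.899% as deposited and 5.61%, 3.72%, 4.6% and 1.24% in these settings. The 1 member called lower there, RFC1, became 0 with the replicate block, in a fit of the 2 groups alone, and in quantile normalization without the third array. Against normoxia the HIF1A siRNA count of 45 (30.4% of all genes) became 28 (5.74%) in the last setting. RFC1 in hypoxia reversed to 0.0105 (quantile) and 0.0196 (cyclic loess). The cause was not tested.

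With 1 array left out, the count called lower ran from 24 to 34 in hypoxia (3.53% to 7.55% of all genes). With HIF1A siRNA against control siRNA it ran from 0 to 4 (2.57% to 17.2%). Against normoxia it ran from 41 to 46 with HIF1A siRNA (15.5% to 32.2%) and 19 to 29 with HIF2A siRNA (2.44% to 4.53%). Between the siRNAs it ran from 0 to 6 (1.78% to 16.4%). The check on replicate numbers did not show pairing across all 4 groups. Same-number arrays of 2 groups had deviations correlating at -0.29 to 0.42, over 0.1 in 5 of 18 pairs. Of the 12 arrays, 4 correlated best with their own number. The second arrays of both control groups and the HIF2A siRNA group correlated positively with each other (0.42, 0.17 and 0.18). With the second HIF1A siRNA array they correlated negatively (-0.19, -0.29 and -0.13). In 3 groups the second array was the lowest for most members, and its upper quartile over all probe sets was also the lowest there. With the replicate block 31 members were called lower in hypoxia (8.9% of all genes). Against normoxia 46 were called lower with HIF1A siRNA (29.6%) and 33 with HIF2A siRNA (6.42%). Without a measure of signal over background, dim genes such as POLE2 and DBF4 cannot be placed above or below it.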
